A study of Mus musculus with 12 samples.

Results

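A bivalent region carries trimethylation of lysine 4 of histone H3 (H3K4me3), a mark of gene start sites, together with trimethylation of lysine 27 (H3K27me3), the mark written by Polycomb repressive complexes. Bivalent regions of mouse small-intestinal crypts were taken here as the peaks of the crypts H3K4me3 list that overlap a peak of the crypts H3K27me3 list by at least 1 bp. They numbered 1612 of 16489 H3K4me3 peaks, or 9.78%, and were chosen by this overlap, so that the presence of both marks in crypts is a description and not a result. Each was followed in the villi lists of H3K4me3, H3K27me3 and H3K4me1, the monomethylation of lysine 4 found at enhancers and around active start sites.

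The series came from a study of the cleavage of histone H3 tails during intestinal differentiation and compared crypts, the proliferative glands that hold the stem and Paneth cells, with villi, the projections covered by differentiated cells, by ChIP-seq with added Drosophila chromatin. Villi were scraped off the opened small intestine of mice and crypts were released from the remaining tissue with EDTA, with no strain, age, sex or treatment given in the sources used here. Each mark was sequenced in 1 library per compartment, which leaves every crypts-to-villi difference unreplicated and without a p-value. The peak lists used were of 16489 and 16977 H3K4me3 peaks, 7611 and 13797 H3K27me3 peaks, 54642 and 55341 H3K4me1 peaks and 2126 and 2089 H3K9me3 peaks, in crypts and villi respectively. The lists hold a position on mm10 and a score for each peak, taken as the authors' -log10 p, without read counts, and sequencing depth is therefore unknown. Score values are compared only within a list, and between lists a peak is placed by its percentile in each.

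H3K4me3 is deposited by the Set1 and MLL complexes, largely at CpG islands, the stretches of promoter DNA that keep their CpG dinucleotides. H3K27me3 is written by EZH2 in PRC2 and bound by the CBX proteins of PRC1, and it lies over silent developmental genes in most differentiated tissues. In embryonic stem cells the marks coincide at the promoters of regulators that are silent and can later be switched on, and the same combination is found in adult tissues. The marks were measured in chromatin of many cells, in which both marks on the same nucleosome, on the 2 alleles of a gene or in different cells cannot be told apart. A tail cut before lysine 27 has lost lysine 4, so that loss of the methyl group and loss of the tail cannot be told apart either. Likewise a mark lost from some of the cells and a lower level of it in all cells cannot be told apart.

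Sequence at the start sites is shown first, for bivalent genes that kept both marks, H3K4me3 alone or H3K27me3 alone in villi and for genes with H3K4me3 but no H3K27me3 in crypts, because CpG content differed between bivalent and other promoters under weak H3K4me3 peaks. Each line gives the 200 bases that end just before the start of the RefSeq gene model (assembly GRCm38.p6, the assembly that mm10 names), 5′ to 3′ on the strand of the gene, with every CpG in capitals. Windows that met an annotated exon were left out. The first group kept both marks in villi. Ascl2, a transcription factor of intestinal stem cells, lies at chr7:142969265-142969464 on the minus strand, and its window holds 17 CpG.
Ascl2: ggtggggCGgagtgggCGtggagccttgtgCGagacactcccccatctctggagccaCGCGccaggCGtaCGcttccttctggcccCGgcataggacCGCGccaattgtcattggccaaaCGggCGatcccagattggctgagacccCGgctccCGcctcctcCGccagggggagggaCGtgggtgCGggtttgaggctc
Atoh1, the factor that sets the secretory lineages, lies at chr6:64728925-64729124 on the plus strand, with 14 CpG.
Atoh1: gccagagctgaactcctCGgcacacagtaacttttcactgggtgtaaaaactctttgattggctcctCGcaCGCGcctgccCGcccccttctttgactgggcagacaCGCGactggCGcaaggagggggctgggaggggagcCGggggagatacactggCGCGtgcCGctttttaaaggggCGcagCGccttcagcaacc
Hoxa5, a regulator of position along the body axis, lies at chr6:52204588-52204787 on the minus strand, with 22 CpG.
Hoxa5: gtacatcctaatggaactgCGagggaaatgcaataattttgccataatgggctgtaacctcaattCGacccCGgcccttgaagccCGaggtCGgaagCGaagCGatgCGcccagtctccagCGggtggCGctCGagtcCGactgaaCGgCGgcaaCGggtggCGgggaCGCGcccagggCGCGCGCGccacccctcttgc
The next pair kept H3K4me3 alone. Unc5b, a netrin receptor, lies at chr10:60831582-60831781 on the minus strand, with 22 CpG.
Unc5b: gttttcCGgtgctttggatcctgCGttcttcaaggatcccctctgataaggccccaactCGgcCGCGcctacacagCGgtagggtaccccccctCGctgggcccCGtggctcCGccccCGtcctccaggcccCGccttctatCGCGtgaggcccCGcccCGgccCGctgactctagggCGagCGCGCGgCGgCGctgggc
Bmp8a, a ligand of the BMP family, lies at chr4:123343253-123343452 on the minus strand, with 11 CpG.
Bmp8a: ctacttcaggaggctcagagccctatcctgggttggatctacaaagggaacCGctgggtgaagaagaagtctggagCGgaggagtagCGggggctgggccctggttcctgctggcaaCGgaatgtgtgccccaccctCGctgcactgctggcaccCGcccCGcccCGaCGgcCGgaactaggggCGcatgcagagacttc
Sfrp5, a secreted inhibitor of Wnt signalling, kept H3K27me3 alone and lies at chr19:42202253-42202452 on the minus strand, with 12 CpG.
Sfrp5: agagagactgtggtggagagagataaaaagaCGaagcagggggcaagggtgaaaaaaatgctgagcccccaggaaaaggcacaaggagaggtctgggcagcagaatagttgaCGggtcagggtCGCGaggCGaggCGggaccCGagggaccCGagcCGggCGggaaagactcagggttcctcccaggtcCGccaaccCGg
The last 3 had H3K4me3 without H3K27me3 in crypts. Mki67, which codes for the proliferation antigen Ki-67, lies at chr7:135716380-135716579 on the minus strand, with 22 CpG.
Mki67: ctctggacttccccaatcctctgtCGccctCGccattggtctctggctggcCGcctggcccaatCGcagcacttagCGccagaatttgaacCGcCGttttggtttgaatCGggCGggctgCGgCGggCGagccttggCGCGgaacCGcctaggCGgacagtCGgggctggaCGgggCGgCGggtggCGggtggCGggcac
Fabp2, the intestinal fatty acid binding protein of enterocytes, lies at chr3:122894872-122895071 on the plus strand, with 1 CpG.
Fabp2: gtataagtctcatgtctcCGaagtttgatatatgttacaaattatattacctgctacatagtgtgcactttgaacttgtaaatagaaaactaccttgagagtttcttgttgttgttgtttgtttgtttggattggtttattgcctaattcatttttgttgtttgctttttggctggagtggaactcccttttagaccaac
Sis, the brush border enzyme sucrase-isomaltase, lies at chr3:72967864-72968063 on the minus strand, with 0 CpG.
Sis: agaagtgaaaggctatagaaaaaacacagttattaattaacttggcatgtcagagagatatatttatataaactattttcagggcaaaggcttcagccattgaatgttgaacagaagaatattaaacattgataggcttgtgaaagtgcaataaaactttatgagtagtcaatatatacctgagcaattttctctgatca

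In crypts the bivalent peaks were weak and narrow H3K4me3 peaks. Their median score was 32.9 (quartiles 18.4 and 66.5), against 204 (47.7 and 351) for the 14877 H3K4me3 peaks without H3K27me3, and 94.8% of them ranked under the median score of the list. Their median width was 999 bp (quartiles 711 and 1423), against 1658 bp (1031 and 2384). H3K27me3 covered a median of 78.6% of the bivalent peak (quartiles 39.5 and 100%). It covered the whole peak in 688 (42.7%, 95% Wilson interval 40.3 to 45.1%), and less than 10% of it in 67 (4.16%, 3.29 to 5.24%). Such intervals take in counting error alone, and peaks that are neighbours may depend on each other. The best overlapping H3K27me3 peak ranked by median at percentile 71.1 of its list and was 2557 bp wide.

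The members just inside the rule overlapped H3K27me3 by a few base pairs. A peak away from coding start sites overlapped it by 5 bp and kept both marks in villi. Gng8 followed with 6 bp, Fkbp10 and P3h4 with 8 bp and Ptgdr with 10 bp, all with H3K4me3 alone in villi. Just outside, the peaks at Rgma, Rnf144b and Hk2 were 5, 8 and 9 bp away from H3K27me3, and 32 peaks without overlap lay within 100 bp.

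Most bivalent peaks lay at promoters. Of the 1612, 1284 (79.7%, 77.6 to 81.5%) were within 1 kb of a start site of a protein-coding transcript in GENCODE M21, against 73.4% of all crypts H3K4me3 peaks. Another 77 lay at other start sites, 152 inside coding genes and 99 outside them. The bivalent peaks reached 1312 of the 12598 coding genes with H3K4me3 in crypts, or 10.4%. Chromosome X held 13 bivalent peaks among 436 H3K4me3 peaks (2.98%), whereas the share on the autosomes ran from 7.24% on chromosome 17 to 12.6% on chromosome 18, and none of the 7 H3K4me3 peaks of chromosome Y was bivalent.

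The start site itself was not always inside H3K27me3. Of the 1087 bivalent peaks with a coding start site inside, 612 (56.3%, 53.3 to 59.2%) had a start site in the H3K27me3 peak. These had a median H3K4me3 score of 28.7, against 68.5 for the 475 whose start sites lay outside H3K27me3. The start site lay in villi H3K27me3 at 89.5% (86.9 to 91.7%) of the 612 and at 17.9% (14.7 to 21.6%) of the 475. Anywhere on the peak, H3K27me3 was kept at 96.1% (94.2 to 97.4%) of the peaks with a start site inside it and at 80.0% (76.2 to 83.4%) of those without, while H3K4me3 was kept at 90.2% (87.6 to 92.3%) and 97.5% (95.6 to 98.5%).

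The base composition of the bivalent peaks was that of CpG islands. Their median GC content was 64.3% against 53.3% for H3K4me3 peaks without H3K27me3, and their median CpG ratio, observed over expected from C and G content, was 0.744 against 0.576. A GC content above 50% with a CpG ratio above 0.6 was reached by 84.7% (82.9 to 86.4%) and 38.6% (37.8 to 39.4%). Since peaks differ in width and strength, the comparison was repeated within deciles of the H3K4me3 list by score, counted from the lowest. In decile 1, with median widths of 581 and 538 bp, the shares were 84.7% of 321 bivalent peaks and 7.98% of 1328 others. Among those at coding start sites they were 87.8% of 222 and 20.5% of 224. Among all peaks of decile 5 they were 90.6% of 139 and 42.0% of 1510.

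A window of fixed length gave the same order among weak peaks. RefSeq promoter windows of 300 bases, 250 before and 50 after the start, were matched by symbol for 995 of the 1312 bivalent genes, and for 767 of them the start lay inside a bivalent peak. These 767 held a median of 25 CpG (quartiles 18 and 33), against 22 (15 and 29) for the 8597 starts in H3K4me3 peaks without H3K27me3 and 4 (2 and 8) for the 7978 outside H3K4me3. In decile 1 of the H3K4me3 score the medians were 25.5 for 96 bivalent promoters and 10 for 71 others. In decile 6 they were 26 for 31 and 21 for 1130. From decile 1 to 6 the bivalent medians thus stayed between 24 and 26, whereas those of the other promoters rose with the H3K4me3 score. Deciles 7 to 10 held 6 to 13 bivalent promoters each, with medians of 24, 21, 25.5 and 32, against 23, 23, 24 and 24 for the others. The 20 enterocyte genes with a matched start had a median of 4 CpG, and the 17 cell cycle genes had 24. The enterocyte genes varied, since the 200-base windows of Fabp2 and Sis shown above are among the poorest, and that of Anpep, a brush border peptidase, held 23 CpG.

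**Figure D1:**
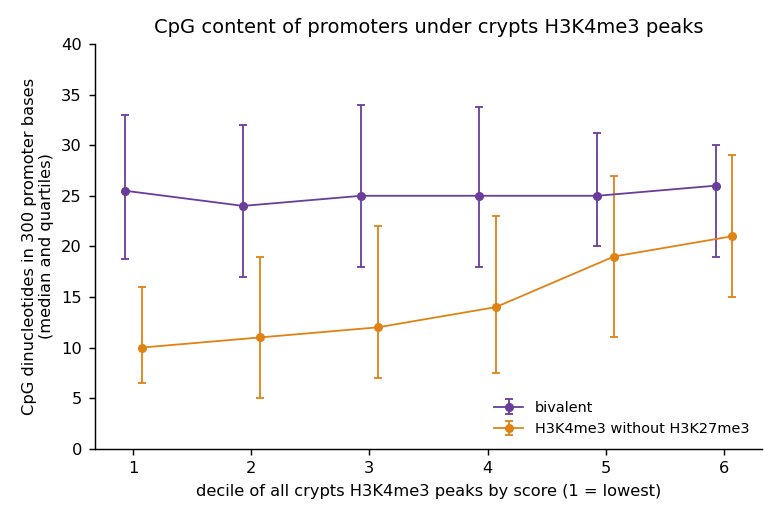
CpG dinucleotides in 300-base promoter windows (vertical axis, median with quartiles as bars) by decile of the crypts H3K4me3 list by score (horizontal axis), for promoters in bivalent peaks and in H3K4me3 peaks without H3K27me3. The bivalent medians lie between 24 and 26 in the 6 deciles shown, while the others go from 10 to 21. Deciles 7 to 10, with 6 to 13 bivalent promoters each, are not drawn.

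Of 3 short motifs searched on both strands of the promoter windows, GGGCGG, the core of the Sp1 motif, was in 78.9% of the bivalent windows, 68.5% of those with H3K4me3 but no H3K27me3 in crypts and 47.4% of all. TATAAA was in 6.78%, 6.16% and 12.7%, and CCAAT in 33.1%, 39.1% and 38.4%. On opposite strands CCAAT and GGGCGG can share bases, GGGCGG itself holds a CpG, and a match is a run of letters and not a bound site. Between outcomes in villi the CpG medians were 25 for 636 promoters that kept both marks, 25 for 89 with H3K4me3 alone and 24 for 42 with H3K27me3 alone.

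Most bivalent peaks carried both marks in villi as well. Both were found at 1289 (80.0%, 77.9 to 81.8%), H3K4me3 alone at 155 (9.62%, 8.27 to 11.2%), H3K27me3 alone at 158 (9.80%, 8.44 to 11.4%) and neither at 10 (0.620%, 0.337 to 1.14%). In 1270 of the 1289, the villi peaks of both marks overlapped each other. H3K4me3 was thus kept at 1444 (89.6%, 88.0 to 91.0%), against 93.3% of all crypts H3K4me3 peaks. H3K27me3 was found at 1447 (89.8%, 88.2 to 91.2%), against 11.3% of all crypts H3K4me3 peaks, most of which had none in crypts either. Seen from the H3K27me3 list, 1545 of the 1675 crypts peaks that touch a bivalent peak met H3K27me3 in villi (92.2%, 90.9 to 93.4%), against 90.4% of the whole list. At coding start sites this share was 92.8% (91.3 to 94.1%) of 1406 with H3K4me3 and 96.7% (95.8 to 97.4%) of 1937 without. At equal H3K27me3 score the peaks at bivalent sites did not keep H3K27me3 more often. Within deciles of the H3K27me3 list the shares were 71.2% with and 79.0% without H3K4me3 in decile 2, 78.4% (69.2 to 85.4%) and 88.7% (86.1 to 90.9%) in decile 4, and 92.4% and 96.0% in decile 6. They were lower at bivalent sites in deciles 2 to 9, the same at 100% in decile 10 and higher in decile 1, at 80.3% and 75.4%.

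A mark absent from the villi list at a bivalent peak was more often close by for H3K27me3 than for H3K4me3. Of the 155 peaks with H3K4me3 alone, 56 (36.1%) had a villi H3K27me3 peak within 1 kb, and in 43 the crypts H3K27me3 peak itself still met one in villi. The median distance of the 155 to the nearest villi H3K27me3 peak was 6247 bp. Of the 158 peaks with H3K27me3 alone, 11 (6.96%) had a villi H3K4me3 peak within 1 kb, and the median distance to the nearest was 34160 bp. Peaks at coding start sites kept H3K4me3 in 91.9% (90.3 to 93.3%) and those elsewhere in 80.5% (75.9 to 84.4%). For H3K4me3 peaks without H3K27me3 these shares were 98.2% and 81.7%.

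**Figure D2:**
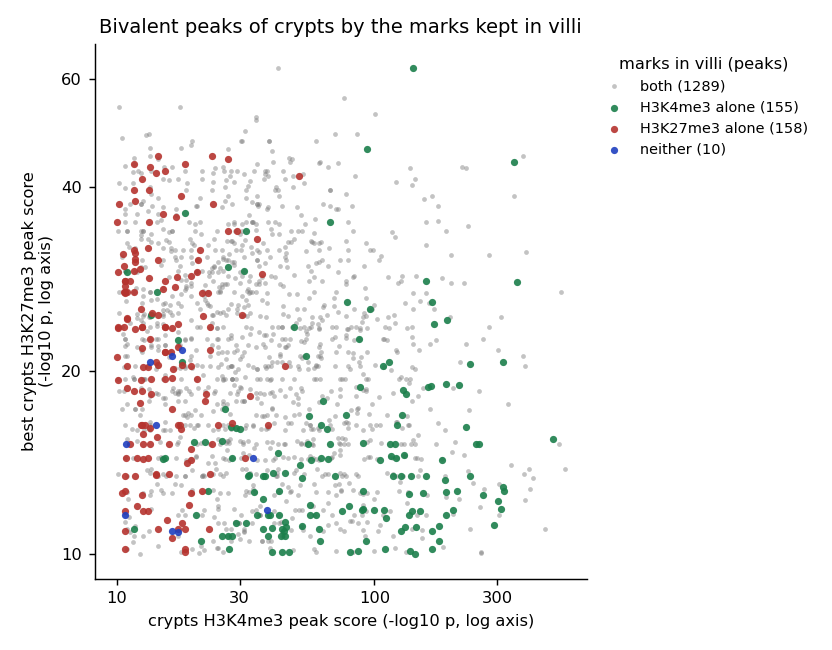
Each point is 1 of the 1612 bivalent peaks, by its crypts H3K4me3 score (horizontal) and the score of its best overlapping crypts H3K27me3 peak (vertical), both as -log10 p on log axes and coloured by the marks found in villi. The 158 peaks with H3K27me3 alone lie at low H3K4me3 scores (median 14.2), and the 155 with H3K4me3 alone mostly at low H3K27me3 scores (median 13.4).

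The outcome in villi followed the strength of each mark in crypts. Peaks that kept H3K27me3 alone had a median H3K4me3 score of 14.2, close to the lowest of the list at 10.0, a median width of 602 bp, and H3K27me3 over the whole peak by median. Peaks that kept H3K4me3 alone had a median H3K4me3 score of 77.9 and a median H3K27me3 score of 13.4, with H3K27me3 over 27.8% of the peak. Peaks that kept both had medians of 34.8 for H3K4me3 and 21.1 for H3K27me3, the latter close to the 21.5 of peaks that kept H3K27me3 alone. A peak close to the threshold can leave a list with a small change of signal, and its part in these outcomes was not tested. The presence of H3K4me3 in villi rested on the lower part of its list, as in crypts, where 94.8% of the members ranked under the median score. Among the upper 50% of villi peaks by score, H3K4me3 was found at 9.18% of the members and both marks at 5.15%, whereas H3K27me3 was found at 81.6%. H3K27me3 covered at least 50% of the peak at 67.9% of the members in villi and at 67.6% in crypts.

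Compared at equal H3K4me3 strength, the bivalent peaks kept H3K4me3 at least as often as the others, the reverse of the order over the whole list (89.6% against 93.7% without H3K27me3). In decile 1 by score H3K4me3 was kept at 67.9% (62.6 to 72.8%) of the bivalent peaks and 56.5% (53.8 to 59.1%) of the others. In decile 2 the shares were 84.9% (80.8 to 88.3%) and 79.5% (77.2 to 81.6%), and in decile 3 they were 97.1% (94.9 to 98.3%) and 93.9% (92.5 to 95.1%). The intervals were apart in decile 1 alone. From decile 4 up, all 532 bivalent peaks kept it. The others of the low deciles lay less often at coding start sites, 16.9% against 69.2% in decile 1, and the part of place in the difference was not tested.

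H3K27me3 ran the other way along the H3K4me3 score. It was kept at 96.9% (94.4 to 98.3%) of bivalent peaks in decile 1, 90.4% (87.2 to 92.9%) in decile 3 and 73.4% (65.5 to 80.0%) in decile 5, and at 71.7% (65.5 to 77.3%) of the 223 peaks of the upper 6 deciles. Along the score of the H3K27me3 peak itself it rose, from 75.4% of the members in the lowest 25% by that score to 97.5% in the highest 25%. The members were also split at their own median of both scores, so that high and low are relative to the members. With a high H3K4me3 and a low H3K27me3 score, H3K27me3 was kept at 76.3% of 455 (72.1 to 79.9%), and with both high at 94.9% of 350 (92.0 to 96.7%). With a low H3K4me3 score, H3K27me3 was kept at 92.3% of 351 where its own score was low and at 97.4% of 456 where it was high. Among these 4 groups both marks were kept most often, at 93.7% (90.7 to 95.8%), where both scores were high. The 44 members in the upper 50% of both whole lists kept both at 75% (60.6 to 85.4%).

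**Figure D3:**
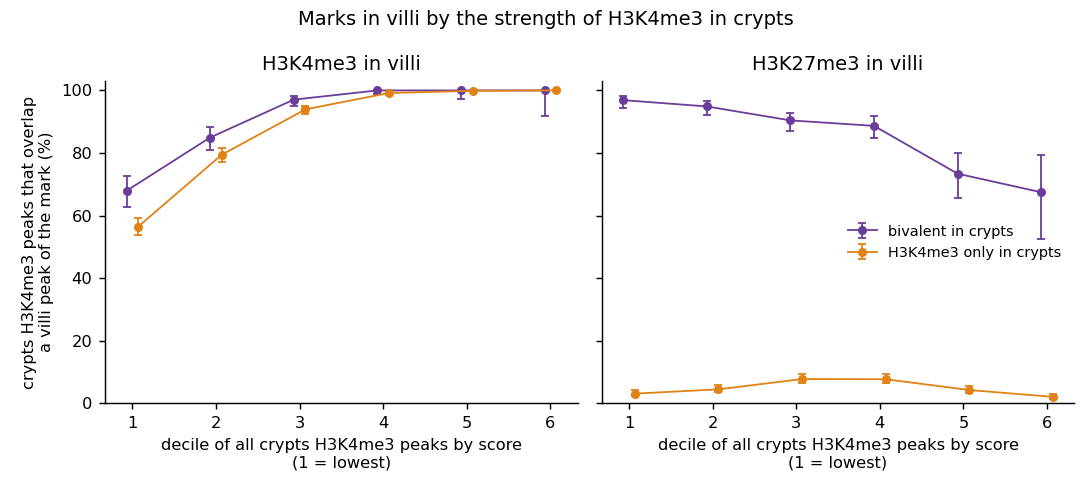
Percentage of crypts H3K4me3 peaks that overlap villi H3K4me3 (left) or villi H3K27me3 (right) by decile of crypts H3K4me3 score (deciles 1 to 6 drawn), for bivalent peaks and for peaks without H3K27me3, with 95% Wilson intervals. H3K4me3 is kept at 67.9% of bivalent and 56.5% of other peaks in decile 1, and H3K27me3 at bivalent peaks goes from 96.9% in decile 1 to 67.4% in decile 6.

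The extent of the marks differed between them. Where a bivalent peak met 1 villi H3K4me3 peak and the converse, its width changed by a median of -0.00 on the log2 scale, villi over crypts (quartiles -0.17 and 0.18, n = 1417), against -0.04 for the 13524 others. The crypts H3K27me3 peaks at bivalent peaks were wider in villi by a median of 0.21 on that scale (quartiles 0.01 and 0.59, n = 1182), and those without H3K4me3 by 0.36 (n = 3554). The 0.21 became 0.040 (95% interval -0.017 to 0.161) in the upper 50% of both crypts lists by score and 0.31 after merging peaks under 1 kb apart. H3K27me3 covered more of the bivalent peak in villi at 468 members, less at 547 and the same at 597, of which 593 were fully covered in both. Coverage went up by 50 percentage points or more at 61 (3.78%) and down by as much at 76 (4.71%).

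Lgr5, the receptor that marks crypt base stem cells, was among the 61. Its H3K4me3 peak (chr10:115585258-115588246) was 2989 bp wide in crypts, at percentile 34.5, and 1356 bp in villi, at percentile 13.0 of that list. H3K27me3 covered 22.3% of the peak in crypts, where it ran from -963 to -87 bp of the start site, and 100% in villi, where it ran from -918 to 2242 bp. The crypts H3K27me3 peak scored 11.3, near the lowest of its list at 10.0, and stood at percentile 19.4. That of villi stood at percentile 84.4. The part of the threshold in the extent called in crypts was not tested. Ascl2 had a like arrangement, with H3K27me3 that ended at -134 bp in crypts and at 389 bp in villi, where a further peak began at 782 bp, over 25.4% and 83.4% of the crypts H3K4me3 peak, and with an H3K4me3 width of 2358 and 2045 bp. Lgr5 and Ascl2 are named from the list of stem cell genes.

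**Figure D4:**
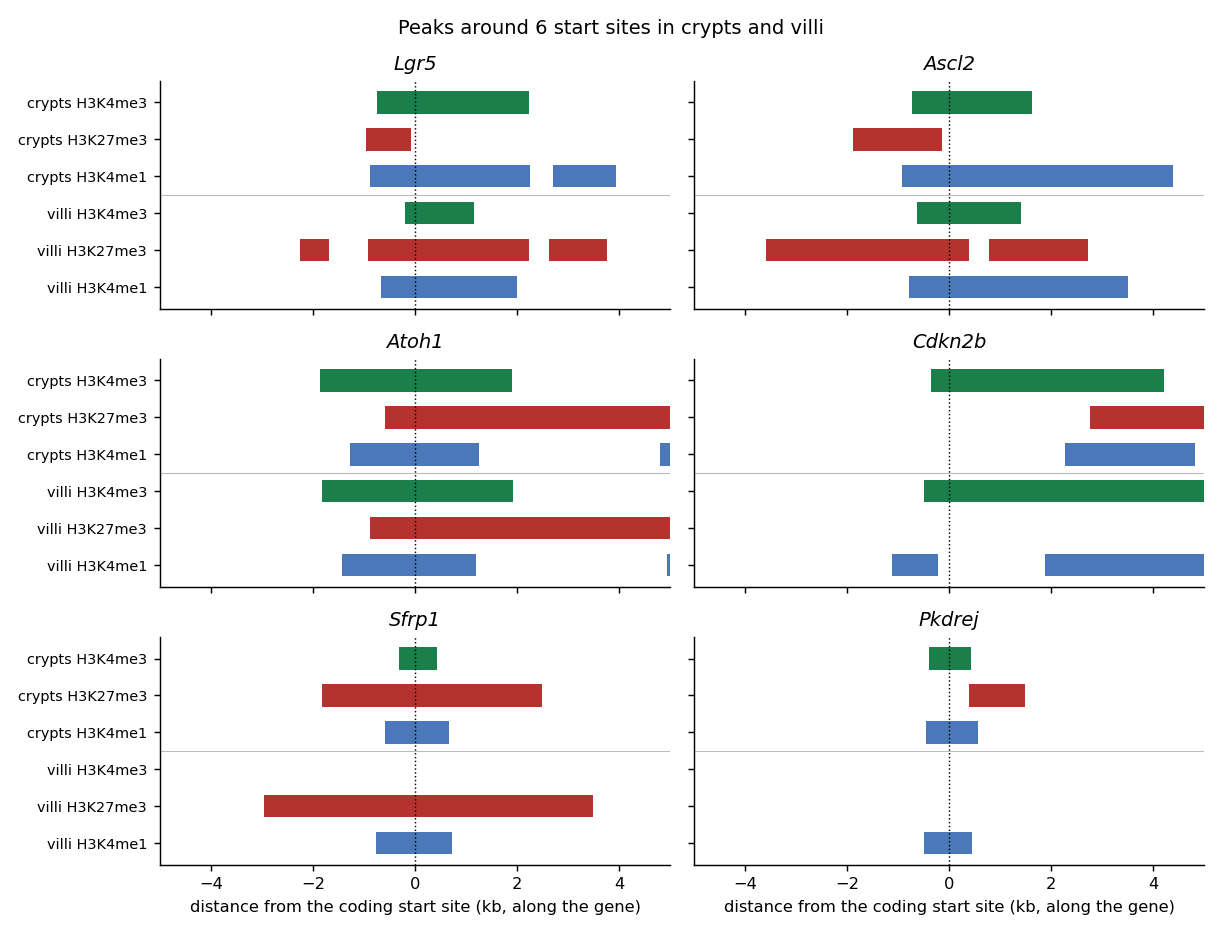
Called peaks of H3K4me3, H3K27me3 and H3K4me1 in crypts (upper 3 rows of each panel) and villi (lower 3 rows) within 5 kb of a coding start site (dotted line), along the direction of the gene. At Lgr5 and Ascl2 the called H3K27me3 takes in the start site in villi and not in crypts. At Atoh1 both marks are alike in both compartments, Cdkn2b has no H3K27me3 in villi, Sfrp1 no H3K4me3 and Pkdrej neither.

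Among the bivalent peaks at coding start sites, the 5 with the highest lower rank of their 2 scores were named for each outcome. Of those with both marks in villi, 4 lay at start sites of 2 genes. The peak of Cryz, a quinone reductase, and Tyw3 (chr3:154596330-154597750) ranked at percentile 96.3 for H3K4me3 and percentile 86.4 for H3K27me3, and H3K27me3 covered 28.1% of it in crypts and 5.77% in villi. The peak of Ccdc92 and Zfp664 followed, with H3K27me3 over 16.8% in crypts and 12.4% in villi. At E030030I06Rik coverage was 58.3% and 53.1%, at Ddx25 and Pus3 44.0% and 43.9%, and at Abca17 and Abca3 29.6% and 24.1%. In each of these 5 the share under H3K27me3 was lower in villi.

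With H3K4me3 alone in villi, Unc5b (chr10:60829974-60832306) ranked at percentile 72.1 for H3K4me3 and percentile 73.3 for H3K27me3. Its H3K4me3 peak was 2333 bp in crypts and 3065 bp in villi, and the H3K27me3 peak of 4080 bp that covered 21.6% of it in crypts had no counterpart at the H3K4me3 peak in villi, where the nearest H3K27me3 began 2943 bp downstream of the start site. The H3K27me3 peak of 18284 bp that reached 16.2% of the peak of Rsrc1, a splicing factor, also held a bivalent peak of Shox2, a homeobox gene. Commd3 and Tnrc6c had H3K27me3 over 17.8% and 18.1% of their peaks in crypts, and Lsm14b over 1.26%.

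With H3K27me3 alone in villi, the leading peaks ranked low for H3K4me3 in crypts. Wfdc2 (chr2:164563327-164564024) stood at percentile 25.6 with a peak of 698 bp that H3K27me3 covered fully in both compartments. Cacna1c, a calcium channel subunit, stood at percentile 22.5, Has3, a hyaluronan synthase, at percentile 21.1, Nynrin at percentile 20.4 and Camk2b, a calcium-dependent kinase, at percentile 19.7. H3K27me3 over the Has3 peak went from 100% to 67.1%, and over that of Cacna1c from 54.2% to 39.4%.

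Neither mark was called in villi at 10 peaks, of which 4 lay at coding start sites, those of Pkdrej, Synpo, Auts2 and Asb4. Pkdrej had H3K27me3 over 3.04% of an H3K4me3 peak of 823 bp in crypts, and Synpo, which codes for an actin-binding protein, over 44.8% of 762 bp. At Auts2 and Asb4 the coverage was 100% and 87.3%, of peaks of 593 and 347 bp. All 4 were covered by H3K4me1 in both compartments, and 8 of the 10 had H3K4me1 in villi.

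The bivalent genes were described by gene lists, whose share is to be read against the 10.4% of all coding genes with H3K4me3 in crypts. The shares of homeobox and other developmental regulators were above it. All 39 Hox genes had H3K27me3 within 1 kb of a start site in crypts, 29 of them with no H3K4me3. Of all 21924 coding genes 2860 had H3K27me3 there, 1419 of them with no H3K4me3. All 10 Hox genes with H3K4me3 were bivalent, 9 with both marks in villi and Hoxb8 with H3K27me3 alone. All with H3K4me3 were likewise bivalent among Lhx and Isl (4), Dlx and Msx (4) and Irx genes (2), and so were Six4, Six5, Pax5 and Nkx6-1. Of the T-box genes it was 4 of 6 (Eomes, Tbx1, Tbx20 and Tbx21), of Sox genes 5 of 9, of Fox genes 9 of 26, of Klf genes 4 of 15 and of Gata genes 1 of 4, Gata3. Dlx4 and Sox30 also kept H3K27me3 alone in villi. H3K27me3 without H3K4me3 was found in crypts at 12 of 14 Nkx and 8 of 12 Lhx and Isl genes, against 1419 of all 21924. At Irx3, H3K27me3 covered 50.9% of the H3K4me3 peak in crypts and 82.6% in villi, and at Gata3 26.7% and 21.8%. At Klf15 it was 72.9% and 0.729%, the H3K4me3 peak having 1783 and 1664 bp.

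The bivalent Fox genes, all 9 with both marks in villi, showed how far the peaks of 1 family varied. Foxj1, the regulator of motile cilia, stood at percentile 49.1 by H3K4me3 score with H3K27me3 over 23.2% of 904 bp in crypts and 11.4% in villi. Foxd1 and Foxd3, both regulators of embryonic lineages, stood at percentiles 0.564 and 0.916, wholly within H3K27me3, and had 645 and 389 bp of H3K4me3 in crypts and 1155 and 1509 bp in villi. The H3K27me3 peak of Foxd3 was 9687 bp in crypts and the widest over it in villi 1648 bp. Foxc1 and Foxf1, factors of mesenchyme, had H3K27me3 over 66.5% and 81.0% in crypts and 82.9% and 90.7% in villi. Among the Sox genes, Sox21 lay wholly within H3K27me3 in both compartments, while at Sox6 the 2 bivalent peaks had 39.9% and 57.8% in crypts and 61.3% and 67.2% in villi. Msx3 had 2 bivalent peaks within 1 H3K27me3 peak of 7242 bp, of which that of 1044 bp kept H3K4me3 and that of 438 bp did not.

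Some neighbouring bivalent peaks shared 1 H3K27me3 peak. Of the 1675 H3K27me3 peaks that touch a bivalent peak, 50 held 2 or more, and 106 bivalent peaks shared one in this way. The largest number was 5, in the H3K27me3 peak of 29090 bp over Hoxb6 to Hoxb9 (chr11:96265862-96294951), of which 4 kept H3K4me3 and 5 kept H3K27me3. The Hoxa peak of 56472 bp (chr6:52198697-52255168) held 3, at Hoxa5, Hoxa7 and a place away from coding start sites, and 2 of them kept H3K4me3. Hoxa5 had 1340 bp of H3K4me3 in crypts and 1200 bp in villi, wholly within H3K27me3 in both.

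Wnt signalling maintains the crypt, and its ligands, Frizzled receptors and secreted antagonists were listed. Of 8 Wnt ligand genes with H3K4me3 in crypts 7 were bivalent (Wnt2b, Wnt3, Wnt5a, Wnt7a, Wnt9a, Wnt9b and Wnt11), and all 7 kept both marks, whereas at Wnt5b H3K27me3 lay within 1 kb of a start site without overlapping H3K4me3. Wnt3, a ligand made by Paneth cells, had 2150 bp of H3K4me3 in crypts and 839 bp in villi, with H3K27me3 over all of the crypts peak in both. Wnt5a, a ligand of the mesenchyme, had 3086 and 2424 bp, also under H3K27me3 throughout. Among the receptors 5 of 10 Frizzled genes were bivalent (Fzd2, Fzd3, Fzd8, Fzd9 and Fzd10) and kept both marks, and at Fzd10 the coverage by H3K27me3 went from 16.6% to 100%. All 5 secreted antagonists with H3K4me3 were bivalent, of which Frzb, Sfrp2 and Wif1 kept both marks and Sfrp1 and Sfrp5 H3K27me3 alone. The H3K4me3 peak of Sfrp1 was 749 bp wide at percentile 1.93 of the crypts list, and its H3K27me3 peak was 4305 bp in crypts and 6446 bp in villi. That of Sfrp5 was 935 bp at percentile 15.8, under H3K27me3 throughout in both.

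The other pathways of the crypt and its stroma held bivalent genes as a minority of those with H3K4me3, whereas BMP ligands and potassium channels were bivalent in the majority. Of 9 Bmp and Gdf genes with H3K4me3 5 were bivalent, and of these Bmp6, Bmp8b and Gdf11 kept both marks and Bmp7 and Bmp8a H3K4me3 alone. The peak of Bmp7 was 2495 bp in crypts and 2185 bp in villi, with H3K27me3 over 35.2% and 0%, and that of Bmp8a 2491 and 3608 bp, with 44.1% and 0%. The crypts H3K27me3 peak of Bmp7 stood at percentile 4.40 of its list, close to the threshold, and that of Bmp8a at percentile 81.2. In the Notch pathway 4 of 17 were bivalent (95% Wilson interval 9.56 to 47.3%), an interval that takes in the 10.4% of all coding genes. They were the effectors Hes5, Hey1 and Hey2 and the glycosyltransferase Lfng, and all kept both marks. At Lfng the H3K4me3 peak was 4735 bp in crypts and 3188 bp in villi and the coverage by H3K27me3 rose from 9.59% to 76.8%, whereas at Hes5 it was 39.8% and 10.7%. In the Hedgehog pathway the receptor Ptch1 and the transducer Smo were bivalent among 5 genes, with H3K27me3 over 27.9% of the Smo peak in crypts and 100% in villi. The crypts H3K27me3 peak of Smo stood at percentile 5.12, also close to the threshold. The receptor Ptch1 had 2 bivalent peaks, one of 6503 bp with H3K27me3 over 4.27% and 4.26%, and one of 1045 bp within H3K27me3 in both compartments. Fgf ligands were bivalent in 3 of 8, among them Fgf15, the ileal hormone that represses bile acid synthesis, with 1940 bp of H3K4me3 in crypts and 3331 bp in villi under H3K27me3 throughout. Eph receptors and ephrins, and likewise semaphorins, both families of guidance cues, were bivalent in 4 of 16. The interval of 10.2 to 49.5% takes in the 10.4% as well. Among them Efna2 kept H3K27me3 alone in villi. Potassium channel genes, most of which serve excitable cells, were bivalent in 17 of 26. All 17 had both marks in villi, as had 1073 of all 1312 bivalent coding genes. Of the 80 potassium channel genes 30 had H3K27me3 without H3K4me3 in crypts, against 1419 of all 21924 coding genes. Of the 17, 7 lay under H3K27me3 throughout in crypts, among them Kcna3, the potassium channel of lymphocytes, with 1210 bp of H3K4me3 in crypts and 2222 bp in villi. At Kcnj4 the coverage was 68.7% in crypts and 100% in villi, and at Kcnk6 82.9% and 71.8%.

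**Figure D5:**
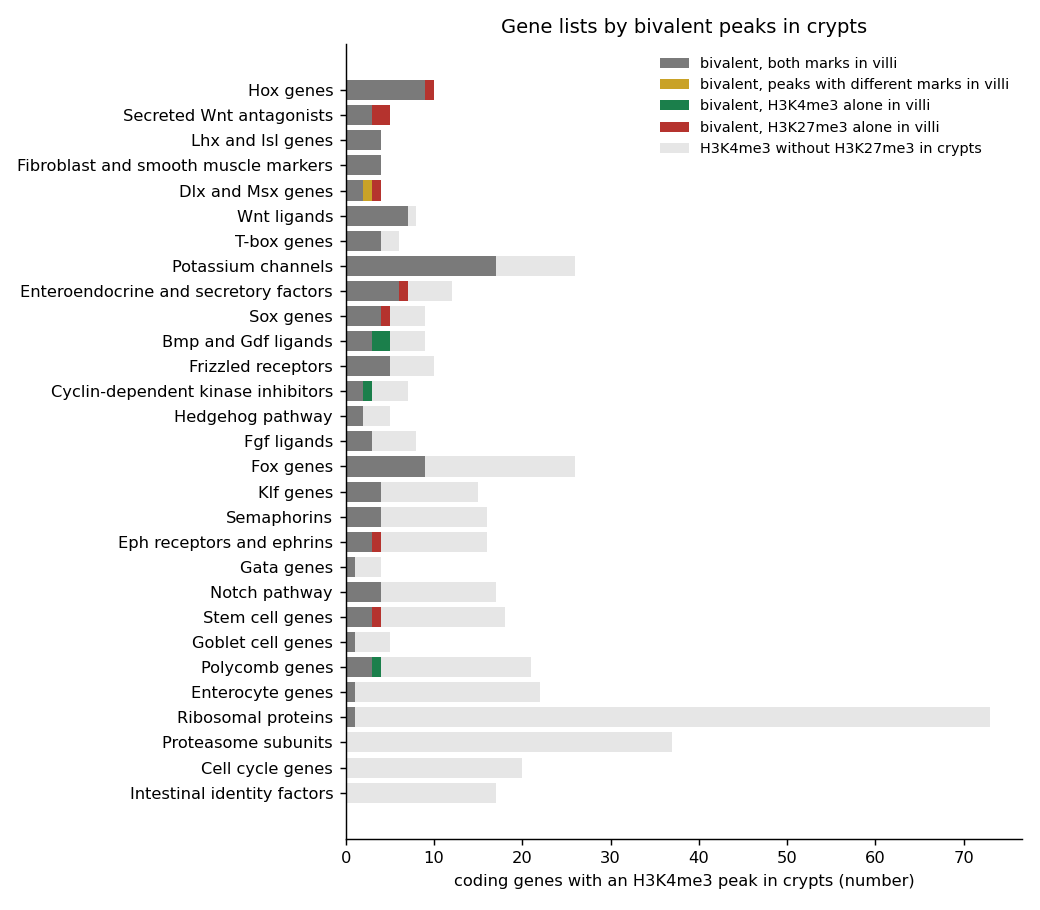
Number of coding genes with an H3K4me3 peak in crypts (bar length) in each gene list with at least 4 such genes, divided into bivalent genes by the marks found in villi and genes without H3K27me3 overlap. Of 10 Hox genes 10 are bivalent, and of 37 proteasome and 17 intestinal identity genes 0.

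Genes of the epithelial lineages were read against the same 10.4% of all coding genes. None of the 17 transcription factors of intestinal identity was bivalent in crypts, a share of at most 17.6% that a count of 0 allows. Of 22 enterocyte genes 1 was (95% Wilson interval 0.807 to 21.8%), Ada, which codes for adenosine deaminase. Both limits take in the 10.4%. The factors of the secretory lineages were bivalent in 7 of 12 (32.0 to 80.7%), above the 10.4%. Of these Atoh1, Gfi1, Insm1, Isl1, Pdx1 and Rfx6 had both marks in villi and Pou2f3, the tuft cell factor, had H3K27me3 alone. At Atoh1 the H3K4me3 peak was 3769 bp in crypts and 3738 bp in villi, with H3K27me3 over 66.3% and 73.8%. At Pdx1, a factor of the proximal intestine, it was 1857 and 1816 bp, under H3K27me3 throughout. Gfi1, a transcription factor of goblet and Paneth cells, had 1155 bp of H3K4me3 in crypts and 4007 bp in villi, with the widest H3K27me3 peak over it at 13075 and 6431 bp. Pou2f3 had a peak of 747 bp at percentile 16.2. Of 18 stem cell genes 4 were bivalent, Lgr5, Ascl2 and Bmi1 with both marks in villi and Msi1, an RNA-binding protein, with H3K27me3 alone. Bmi1, itself a subunit of PRC1, had 1531 and 1536 bp of H3K4me3 with H3K27me3 over 45.5% and 45.4%, and Msi1 had 495 bp in crypts with H3K27me3 over 76.6% and 78.4%. Among the goblet cell genes the mucin Muc2 was bivalent, with 2312 and 2235 bp of H3K4me3 and H3K27me3 over 94.7% and 100%, and among the Paneth cell genes Wnt3. The crypts H3K27me3 peak of Muc2 scored 10.1, close to the lowest score of 10.0, at percentile 2.59 of its list. Its villi H3K4me3 stood at percentile 6.05. The Muc2 H3K4me3 peak of crypts met no H3K4me1 in either compartment.

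Of the cyclin-dependent kinase inhibitors 3 of 7 were bivalent, and they differed in villi. Cdkn2a, which codes for p16 and p19Arf, kept both marks (chr4:89294190-89295883), with H3K4me3 at percentile 50.3 in crypts and percentile 81.0 in villi and H3K27me3 over 100% and 47.2% of the crypts peak. Cdkn2b, which codes for p15, lies next to it (chr4:89306830-89311402) and kept H3K4me3 alone, with 4573 bp in crypts and 5606 bp in villi and H3K27me3 over 31.7% and 0%. Cdkn1c, which codes for p57, kept both, with coverage of 78.7% and 85.5%. Among 21 genes of the Polycomb complexes, which write and read H3K27me3, 4 were bivalent. They were the PRC1 genes Bmi1, Cbx2 and Cbx8 with both marks in villi and Cbx7 with H3K4me3 alone, with H3K27me3 over 45.5%, 10.0%, 25.3% and 1.22% of their crypts peaks.

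The housekeeping lists of ribosomal and proteasome genes stood under the 10.4% of all coding genes with H3K4me3 in crypts. Of 73 ribosomal protein genes 1 was bivalent, Rpl3, whose peak was shared with Syngr1 and had H3K27me3 over 25.8% in crypts. None of 37 proteasome genes and none of 20 cell cycle genes was, for which a count of 0 allows shares of up to 8.11% and 15.0%. The limit for the cell cycle genes takes in the 10.4%, so that their count cannot be set apart from it.

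Genes of other cell types, which crypts and villi hold in smaller number, were described in the same way. All 4 fibroblast and smooth muscle genes with H3K4me3 in crypts were bivalent (Foxf1, Pdgfra, Prrx1 and Vim), as were the only endothelial gene, Prox1, the only leukocyte gene, Tbx21, and 3 neural genes (Neurog2, Ret and Elavl4, of which Elavl4 kept H3K4me3 alone). Prox1, the lymphatic regulator that enteroendocrine cells also use, had 2158 and 2157 bp of H3K4me3, with H3K27me3 over 34.1% in crypts and 100% in villi. Tbx21, the factor T-bet of T cells, stood at percentile 1.05 in crypts with 645 bp, and had 841 bp in villi. Pdgfra, the receptor of fibroblasts, had 1014 and 1369 bp with H3K27me3 over 93.4% and 100%. Of all 21924 coding genes 12598 had H3K4me3 in crypts and 12642 in villi. H3K4me3 was found in crypts and villi at 4 and 5 of 16 fibroblast genes, 1 and 2 of 12 endothelial, 3 and 3 of 14 neural and 1 and 6 of 15 leukocyte genes. The H3K4me3 of leukocyte genes thus differed most between the compartments, and its part in the outcomes was not tested. In the lists of the epithelium H3K4me3 was found in crypts and villi at 18 and 17 of 18 stem cell genes, 22 and 22 of 22 enterocyte genes, 12 and 13 of 20 secretory factors, 5 and 4 of 9 goblet cell genes and 1 and 2 of 10 Paneth cell genes. Presence of a peak at nearly all stem cell and enterocyte genes cannot tell the compartments apart.

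H3K4me1 accompanied most of the bivalent peaks. It met 1506 in villi (93.4%, 92.1 to 94.5%), against 87.9% of all crypts H3K4me3 peaks, and 1495 in crypts (92.7%, 91.4 to 93.9%), which is close to the 91.5% of all crypts H3K4me3 peaks there. It was there in both compartments at 1434, in crypts only at 61, in villi only at 72 and in neither at 45. By the marks kept, it was found in villi at 95.3% of the 1289 with both, 84.5% of the 155 with H3K4me3 alone and 87.3% of the 158 with H3K27me3 alone. Its coverage of the peak was 100% by median in crypts, against 58.5% for the other H3K4me3 peaks. In deciles 1 to 3 of the H3K4me3 score both medians were 100% in crypts, and in decile 5 they were 93.1% and 61.9%. H3K9me3, the mark of constitutive heterochromatin, met 3 bivalent peaks in crypts (0.186%) and 2 in villi (0.124%), among 12 (0.0728%) and 9 (0.0546%) of all crypts H3K4me3 peaks.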

How the data were processed

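Peaks were analysed from chromatin immunoprecipitation of H3K4me3, H3K27me3, H3K4me1 and H3K9me3 in crypts and villi, with 1 library per mark and compartment and Drosophila chromatin added. The authors used Bowtie 1.1.2 for aligning paired reads (mouse mm10, fly dm6), discarded duplicates and ambiguous reads, and called peaks with MACS2 2.1.1 at p 1e-10. The scores the authors deposited were taken as -log10 p, from a lowest value of 10.0 that is the MACS2 threshold. The fly chromatin did not enter the calls. Scaled tracks and the H3K9me2 lists were not used here. The lists hold no read counts, so depth is unknown, and scores and numbers of peaks move with it.

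Overlaps of at least 1 bp were computed in Python 3.11.15 with pandas 2.3.3 and numpy 2.4.6, tested on simulated intervals and compared with bedtools 2.31.1. Genome sequence was read with pysam 0.24.0 and figures were drawn with matplotlib 3.10.9. Coding start sites were those of GENCODE M21 within 1 kb, and promoter sequences were those of RefSeq on GRCm38.p6. Intervals on shares are 95% Wilson intervals. Coverage is the percentage of the crypts H3K4me3 peak under the other mark. Villi H3K4me3 widths are summed over overlapping peaks, and H3K27me3 widths are of the widest. The peaks and gene lists were chosen with earlier results of these data known. Genes named were the 5 per outcome with the highest lower percentile of both scores at coding start sites, and members of the gene lists. Alternatives were a coverage of 50%, the upper 50% of each list by score, lists merged over gaps of 1 kb, autosomes alone, a villi H3K27me3 list of equal length and a start site window of 5 kb. The values of a few genes are not reported here.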

Additional observations from a re-analysis of the deposited data

How the results depend on the processing

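Of 50 alternative values 27 moved, and 23 stayed within the 95% interval of the value reported or, for counts of peaks, within 1.5 times. The H3K4me3 log2 width ratio, -0.0022 as reported, was 0.0041 in the upper 50% of both crypts lists, with intervals that take in 0. Requiring 50% coverage by H3K27me3 left H3K4me3 kept at 86.3%, H3K27me3 at 95.5%, both at 82.4%, H3K4me1 at 94.7% and 77.3% at coding start sites. The upper 50% of both crypts lists by score left 44 peaks, with H3K4me3 kept at 100%, H3K27me3 at 75%, both at 75%, neither at 0%, H3K4me1 at 90.9%, 90.9% at coding start sites and a median H3K27me3 log2 width ratio of 0.040. Requiring villi peaks to cover 50% gave 87.9%, 67.9%, 57.9%, 2.11% and 86.4% for H3K4me3, H3K27me3, both, neither and H3K4me1. The upper 50% of the villi lists gave 9.18%, 81.6%, 5.15%, 14.4% and 71.1%. With the villi H3K27me3 list cut to the 7611 peaks of the crypts list, H3K27me3 was kept at 83.0% and both at 73.7%. A window of 5 kb put 87.7% at coding start sites, and merging gave an H3K27me3 log2 width ratio of 0.31. The cause of these shifts beyond the smaller lists was not tested. Bivalent peaks numbered 1089 at 50% coverage, 1585 after merging and 1599 on autosomes. No paired analysis was possible because each mark had 1 library per compartment, so no library could be left out, and unknown depth limits every presence and absence.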

Other observations

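Seen from villi, 1901 H3K4me3 peaks overlapped villi H3K27me3. Of these 1287 lay at a peak that was bivalent in crypts, 380 at a crypts H3K4me3 peak without H3K27me3, and 234 at no crypts H3K4me3 peak. Conversely, 411 of the 14877 crypts H3K4me3 peaks without H3K27me3 (2.76%, 95% Wilson interval 2.51 to 3.04%) met H3K27me3 in villi, 372 of them with H3K4me3 as well. Among those with the highest ranks at coding start sites, chosen after their values were seen, were Erich1, Fhod1 with Slc9a5, and Dok1 with Loxl3. The Wnt receptor Fzd1 and the sphingosine phosphate receptor S1pr2 were among the first 10. By decile of crypts H3K4me3 score, counted from the lowest, the share with villi H3K27me3 was 3.09% in decile 1, 7.75% in decile 3, 7.69% in decile 4 and 2.06% in decile 6. The villi H3K27me3 list held 13797 peaks over 35.6 Mb and the crypts list 7611 over 20.3 Mb, and the part of this difference in those counts was not tested.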
